A study of Homo sapiens with 6 samples.

Results

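DNAJ co-chaperones are proteins with a J domain that hand client proteins to HSP70 chaperones and stimulate the HSP70 ATPase. The genes described here are the rows of the deposited table whose symbols start with DNAJA, DNAJB or DNAJC followed by a number and at most 1 more letter, without the heat shock gene DNAJB1 and the endoplasmic reticulum genes DNAJB9, DNAJB11, DNAJC3 and DNAJC10. This rule gave 36 of 19792 genes, with 4 of class A, 7 of class B and 25 of class C. The cells were BT-549, an established line from a triple-negative breast cancer, with a tetracycline-inducible WDR5 shRNA and puromycin resistance. RNA-seq covered 6 cultures, of which 3 had 0.1% DMSO as vehicle and 3 had 500 ng/ml doxycycline (DOX) to switch the shRNA on for 7 days. All 6 libraries thus come from 1 line with the same shRNA, and cells with a control shRNA were not analysed here.

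The value used for each gene is the authors' mean normalized count over all 6 libraries, vehicle and DOX together. No library was analysed here on its own. Library depths and the spread between cultures are therefore unknown, and no level below has a standard deviation. The table's other columns hold the authors' own comparison of DOX with vehicle and were not used, so no difference between the treatments was tested and the reduction of WDR5 was not checked. The targeted gene WDR5 had a mean normalized count of 1143 over the 6 libraries. The mesenchymal genes VIM, FN1, CDH2 and ZEB1 had means between 4093 and 47782, whereas ESR1, PGR and EPCAM were between 0.790 and 1.30 and CDH1 was 59.6. ERBB2 had a mean of 1221. Of the 5 markers listed as low, ERBB2 was thus not near 0.

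The J domain carries a conserved histidine, proline and aspartate motif that touches HSP70 and triggers ATP hydrolysis, which locks the client in place. Class A proteins resemble bacterial DnaJ and hold a zinc-binding region, class B proteins have the glycine and phenylalanine-rich stretch without it, and class C proteins share only the J domain. Class C members are therefore placed at very different sites, such as ribosomes, spliceosomes, endosomes and the inner membrane of mitochondria. Nucleotide exchange factors then release ADP from HSP70 and complete the cycle.

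Promoter sequences are shown first for 4 genes, since they pair the 2 highest genes of the family with 2 of the 4 lowest. They are the 250 bases before the transcription start in RefSeq (GRCh38.p14), read 5′ to 3′ on the strand of the gene, and capitals mark CG dinucleotides. DNAJA1 (chr9:33025023-33025272, plus strand) and DNAJC8 (chr1:28233030-28233279, minus strand) had the highest levels. DNAJA4 (chr15:78264312-78264561, plus strand) and DNAJC12 (chr10:67838189-67838438, minus strand) had mean normalized counts of 1.13 and 4.19.
DNAJA1: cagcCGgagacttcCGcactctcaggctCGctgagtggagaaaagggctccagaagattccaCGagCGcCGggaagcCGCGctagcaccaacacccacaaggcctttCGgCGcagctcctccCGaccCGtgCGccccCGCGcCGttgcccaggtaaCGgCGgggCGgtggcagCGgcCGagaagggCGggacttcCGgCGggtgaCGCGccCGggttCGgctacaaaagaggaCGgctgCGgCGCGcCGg
DNAJC8: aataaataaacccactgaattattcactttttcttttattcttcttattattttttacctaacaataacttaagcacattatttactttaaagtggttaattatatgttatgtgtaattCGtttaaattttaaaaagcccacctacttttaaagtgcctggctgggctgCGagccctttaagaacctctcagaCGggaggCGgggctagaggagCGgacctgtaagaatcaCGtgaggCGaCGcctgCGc
DNAJA4: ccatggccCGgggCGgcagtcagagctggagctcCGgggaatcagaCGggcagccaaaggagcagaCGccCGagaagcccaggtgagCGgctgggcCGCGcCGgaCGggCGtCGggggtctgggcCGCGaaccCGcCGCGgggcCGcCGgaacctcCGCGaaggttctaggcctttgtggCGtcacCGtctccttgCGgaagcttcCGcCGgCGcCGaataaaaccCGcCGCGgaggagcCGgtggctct
DNAJC12: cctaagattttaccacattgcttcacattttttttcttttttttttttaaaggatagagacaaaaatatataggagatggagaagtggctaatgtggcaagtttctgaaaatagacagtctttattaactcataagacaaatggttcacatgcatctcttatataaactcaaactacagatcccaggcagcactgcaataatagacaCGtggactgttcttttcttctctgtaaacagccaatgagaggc
These stretches hold 33 CG dinucleotides for DNAJA1, 9 for DNAJC8, 33 for DNAJA4 and 1 for DNAJC12. The CG number was therefore the same for DNAJA1 and DNAJA4, the highest and the second lowest of the 36 genes per kilobase of transcript.

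The DNAJ genes were mostly expressed, and they spread over a wide range of levels. Of the 36 genes, 32 had a mean normalized count of at least 10, against 68.5% of all 19792 genes and 78.3% of the 15542 protein-coding genes that could be matched to the annotation. The 4 genes below 10 were DNAJC12, DNAJA4, DNAJB13 and DNAJC5B. The mean normalized counts ran from 0.268 for DNAJC5B to 19419 for DNAJA1, with a median of 1214 and quartiles of 247 and 2424. To compare genes, each mean was divided by the length of the gene's MANE Select transcript in kilobases. On that scale, 27 of 36 genes were at or above the median of all genes with a length (80.0 per kilobase), against 57.0% of the protein-coding genes. In the top 10.0% of genes were 4 of the 36, namely DNAJA1, DNAJC8, DNAJB6 and DNAJC7. Which genes these were depended on the length. With the joined length of all annotated exons they were DNAJA1, DNAJC8, DNAJC9, DNAJB4 and DNAJC1, and with the longest annotated transcript they were DNAJA1, DNAJC8, DNAJA2 and DNAJC9. The median over the 36 genes was 273 per kilobase, and the family as a whole took 0.261% of the sum of the mean normalized counts.

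**Figure D1:**
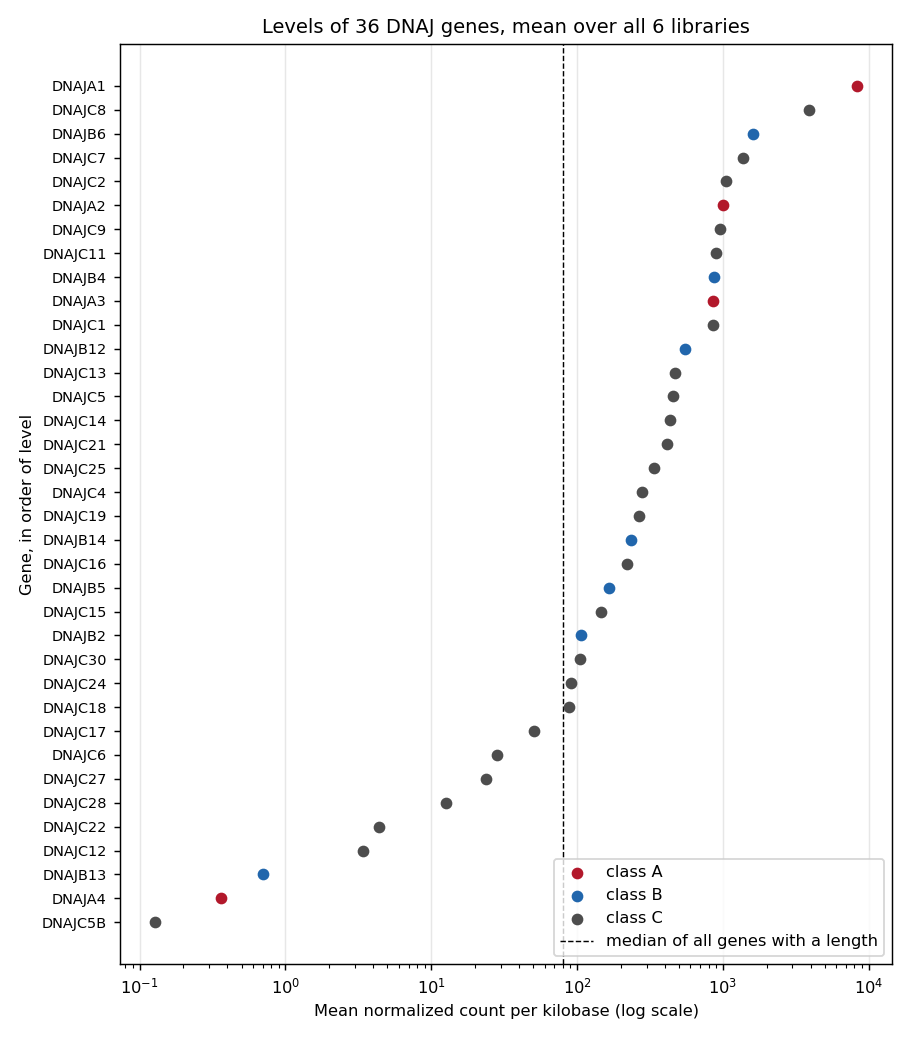
Level of each of the 36 DNAJ genes as the mean normalized count per kilobase of the MANE Select transcript, on a log axis, with 1 point per gene coloured by class and a dashed line at the median of all genes with a length. DNAJA1 stands at 8374 per kilobase and DNAJC5B at 0.127 per kilobase, and 9 genes lie left of the line.

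A few genes held most of the family's transcripts. DNAJA1 alone made up 31.9% of the summed level per kilobase, and DNAJC8 made up 14.8%. The 5 highest genes (DNAJA1, DNAJC8, DNAJB6, DNAJC7 and DNAJC2) made up 62.1%, and the 18 lowest genes 5.91%. With all exons joined, DNAJA1 and DNAJC8 kept places 1 and 2, whereas DNAJB6, DNAJC7 and DNAJC2 took places 14, 16 and 9. Per kilobase of the MANE Select transcript, the level of DNAJA1 was 2.15 times that of DNAJC8, the next in order. By contrast, the 7 genes from DNAJC2 to DNAJC1 in this order lay between 854 and 1046 per kilobase, and the order within such a run cannot be told from a mean without a spread.

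**Figure D2:**
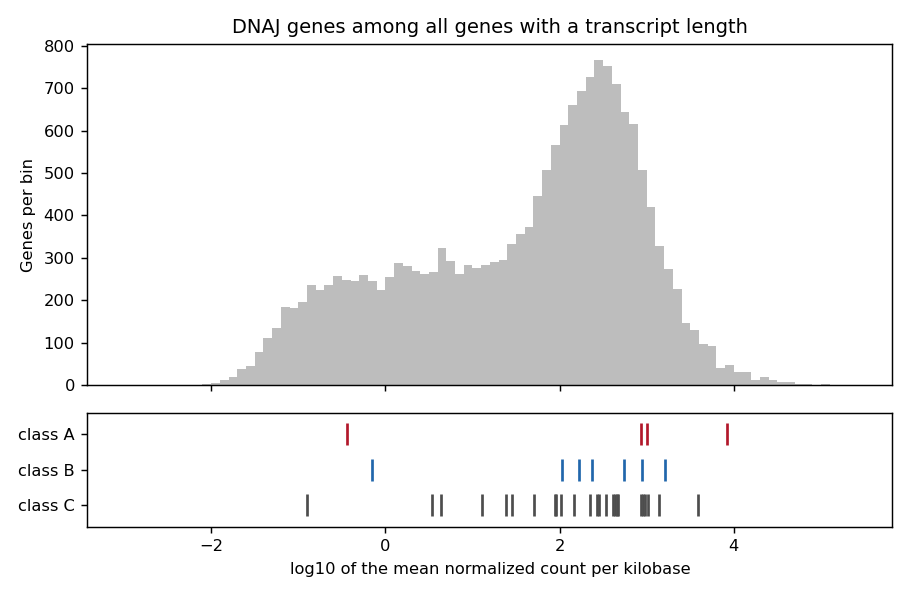
Histogram of the log10 mean normalized count per kilobase for 18310 genes with a transcript length (top, genes per bin), with 1 tick for each DNAJ gene by class (bottom). Most ticks of all 3 classes fall under the right-hand peak, and 1 gene of class A, 1 of class B and 1 of class C fall below 0 on the log10 scale.

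Class A, the closest relatives of bacterial DnaJ, held the highest gene and 1 of the lowest. DNAJA1, a cytosolic partner of HSP70 that helps to fold and import many clients, is encoded by bases 33025273 to 33039907 of chromosome 9 (GRCh38, GENCODE 44). Its mean normalized count was 19419, or 8374 per kilobase, and 99.1% of genes with a length were lower. DNAJA2, its cytosolic paralog on chromosome 16, had a mean of 3037 and 1010 per kilobase. DNAJA3, the class A protein of the mitochondrial matrix, had a mean of 2330 and 863 per kilobase. DNAJA4, another cytosolic paralog, had a mean of only 1.13. The level of DNAJA1 was thus 8.29 times that of DNAJA2 per kilobase. The class held 39.0% of the summed level of the 36 genes, and without DNAJA1 it held 10.5% of the rest.

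The highest class B gene of the cytosol and nucleus depended on the length used. It was DNAJB6, which keeps aggregation-prone proteins soluble, per kilobase of the MANE Select transcript. DNAJB6, on chromosome 7 from 157335381 to 157417439, had a mean normalized count of 4040 and 1623 per kilobase. DNAJB4, a close relative of DNAJB1, had a mean of 2527 and 871 per kilobase. DNAJB5, of the same branch, had a mean of 443 and 167 per kilobase. DNAJB2, which binds ubiquitin and is best known from neurons, was the lowest of these 4 at 327 and 107 per kilobase. DNAJB6 was 15.2 times DNAJB2 per kilobase of the MANE Select transcript, 4.81 times with all exons joined and 6.93 times with the longest transcript. GENCODE 44 lists 18 transcripts for DNAJB6, and it moved from place 3 to place 14 of 36 when all exons were joined. DNAJB4 was then above it, with 683 against 270 per kilobase, and likewise with the longest transcript, with 871 against 506.

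DNAJB12 and DNAJB14 sit in the endoplasmic reticulum membrane and face the cytosol, where they act in the disposal of membrane proteins. DNAJB12 had a mean normalized count of 1624 and DNAJB14 one of 1409. Per kilobase they were 553 and 236, a ratio of 2.34, because the transcript of DNAJB14 is longer (5967 against 2935 bases). DNAJB13, an axonemal protein of sperm and cilia, had a mean of 0.814. The other testis-linked class B genes DNAJB3, DNAJB7 and DNAJB8 were not analysed here.

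Class C genes tied to ribosomes, histones and splicing formed the second largest group, with 24.2% of the summed level. Most of this came from DNAJC8, which alone made up 14.8% of the summed level of the 36 genes. DNAJC8, a protein found with spliceosomes, had a mean normalized count of 6868 and 3896 per kilobase, and it lies on chromosome 1 from 28199456 to 28233029. DNAJC2, which sits with HSP70 partners at the ribosome, had a mean of 2396 and 1046 per kilobase. DNAJC9, a histone chaperone that recruits HSP70, had a mean of 2195 and 956 per kilobase. DNAJC21, a factor of large ribosomal subunit maturation, had a mean of 2528 and, over a transcript of 6107 bases, 414 per kilobase. DNAJC17, a splicing-associated protein with an RNA recognition motif, was the only one of these 5 below the median of all genes, with a mean of 190 and 51.0 per kilobase. DNAJC8 was 76.3 times DNAJC17 per kilobase and 36.2 times without division by length.

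**Figure D3:**
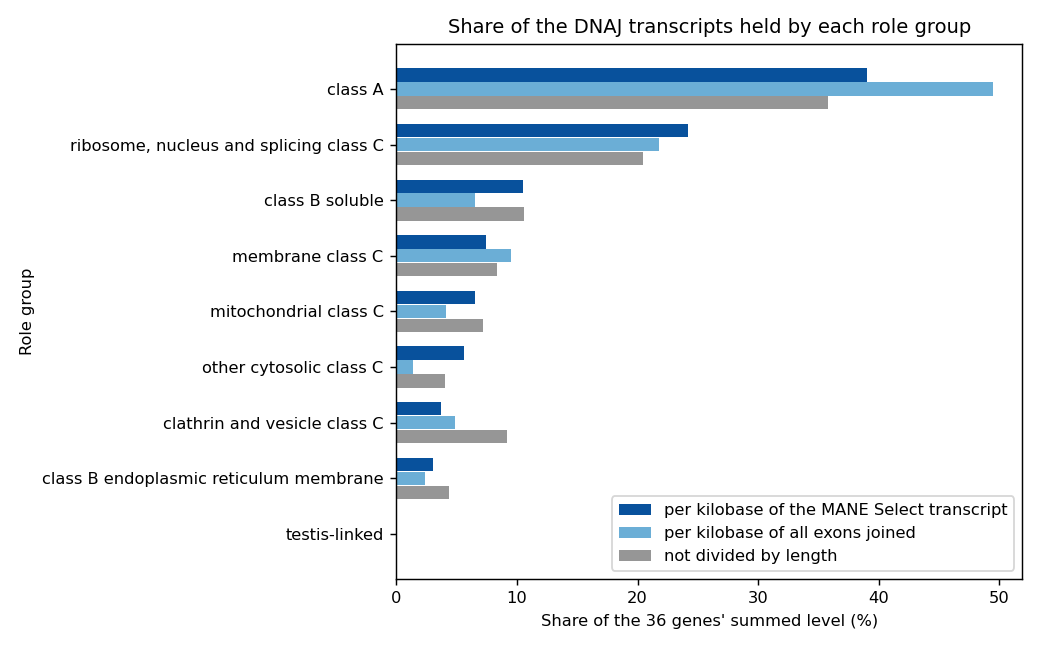
Share of the 36 genes' summed level, in percent, held by each role group, with 1 bar for each way of treating transcript length. Class A is the longest bar in each of the 3 ways, at 39.0% per kilobase of the MANE Select transcript, and the clathrin and vesicle group grows from 3.72% to 9.15% when length is not divided out.

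Among the 6 mitochondrial class C genes, DNAJC11 was the highest, and its product is found with the complexes that shape the cristae. DNAJC11 had a mean normalized count of 2894 and 904 per kilobase. DNAJA3, the class A gene of mitochondria, was close to it at 863, and was above it with all exons joined (330 against 238) and with the longest transcript (695 against 578). DNAJC19 and DNAJC15 are related subunits of the import motor at the inner membrane. DNAJC19 had a mean of 376 and DNAJC15 one of 1095. The MANE Select transcript of DNAJC15 has 7459 bases and that of DNAJC19 has 1416, and per kilobase of these they were 147 and 266. DNAJC15 was the higher of the pair by its mean, with all exons joined (136 against 76.8 per kilobase) and with the longest transcript (147 against 100). DNAJC30, a single-exon gene whose product acts with the respiratory chain, had a mean of 266 and 105 per kilobase. DNAJC4 stood at 280 per kilobase, and DNAJC28 at 12.7 per kilobase with a mean of 18.9. The 6 class C genes held 6.52% of the summed level.

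Of the clathrin and vesicle J proteins, DNAJC13 and DNAJC5 were high and DNAJC6 and DNAJC27 were below the median of all genes. DNAJC5, the cysteine string protein that guards SNARE proteins on vesicles, had a mean normalized count of 2392 and 456 per kilobase. DNAJC13, which acts on early endosomes, had a mean of 3655 and, over a transcript of 7754 bases and 56 exons, 471 per kilobase. DNAJC6, the neuronal auxilin that uncoats clathrin vesicles, had a mean of 169 and 28.4 per kilobase. GAK, the widely expressed relative of auxilin, was 251 per kilobase, 8.85 times DNAJC6, and 3.04 times it with all exons joined. DNAJC27, a J protein with a small GTPase domain, had a mean of 116 and 23.9 per kilobase. DNAJC5B, a testis-linked relative of DNAJC5, had a mean of 0.268.

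Among the other cytosolic class C genes, DNAJC7 was high and DNAJC12 was near 0. DNAJC7, a tetratricopeptide protein that links HSP70 with HSP90, had a mean normalized count of 2505 and 1387 per kilobase. DNAJC24, needed to make diphthamide on elongation factor 2, had a mean of 271 and 91.4 per kilobase. DNAJC12, a helper of aromatic amino acid hydroxylases, had a mean of 4.19. DNAJC7 has 42 annotated transcripts, and it moved from place 4 to place 16 of 36 when all exons were joined.

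The 6 membrane class C genes were led by DNAJC1, a J protein of the endoplasmic reticulum membrane. DNAJC1 had a mean normalized count of 1794 and 854 per kilobase. DNAJC14, DNAJC25 and DNAJC16 followed with 437, 340 and 221 per kilobase. DNAJC18 was just above the median of all genes, at 88.4 per kilobase. DNAJC22 had a mean of 19.5 and 4.38 per kilobase. The group held 7.40% of the summed level.

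Exons of some members overlap those of other genes in the annotation, and no reads were examined. Exons of 13 of the 36 genes overlap exons of another gene that has a row, 10 of them on the opposite strand only. Exons of all annotated transcripts were used, and the share of all genes with such an overlap was not computed. DNAJC9 shares 1819 exon bases with FAM149B1, whose mean normalized count was 636. DNAJC2 shares 1400 bases with PMPCB (1538), and DNAJC17 shares 1149 bases with GCHFR (17.0) and 110 bases with ZFYVE19 (281). DNAJC7 shares 437 bases with CNP, whose mean of 3655 was above that of DNAJC7, and 480 bases with NKIRAS2 (788). DNAJC14 shares 920 bases with ORMDL2 (472), and DNAJC11 shares 1419 bases with THAP3 (285). DNAJC4 shares 297 bases on the same strand with NUDT22 (394). The library kit keeps strand, but whether the counting used it is not given in the sources used here. Processed pseudogenes are annotated for 7 of the genes, with 9 for DNAJC19, 8 for DNAJB6, 6 for DNAJA1 and 4 for DNAJC8, and the copies were not analysed here. Whether the counting split or lost reads between such copies was not tested.

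On the partner side of the cycle, 12 HSP70 genes were listed. They summed to 1.86 times the level per kilobase of the 36 DNAJ genes. This sum holds HSPA5, the HSP70 of the endoplasmic reticulum, at 14612 per kilobase. DNAJB9, DNAJB11, DNAJC3 and DNAJC10 of the endoplasmic reticulum are outside the 36. DNAJC1, of the endoplasmic reticulum membrane, is among the 36 at 854 per kilobase and stays in their sum. Without HSPA5 the ratio was 1.30, and 1.05 with all exons joined as well. Of the HSP70 genes, 8 of the 12 were at or above the median of all genes with a length, against 57.0% of protein-coding genes. HSPA8, the constitutive cytosolic HSP70, had a mean normalized count of 49592 and 21905 per kilobase, which was 2.62 times DNAJA1, and 1.41 times it with all exons joined. HSPA6, a strictly stress-induced HSP70, was the lowest with a mean of 1.06. HSPA1A and HSPA1B, at 945 and 826 per kilobase, have nearly identical sequences, so their reads cannot be told apart with certainty. In mitochondria, the 7 J genes among the 36 (DNAJA3 and the 6 class C genes) summed to 2578 per kilobase. HSCB, a mitochondrial J protein with another name, is outside this sum and had 449 per kilobase. HSPA9, the HSP70 of mitochondria, had 8365 per kilobase, 3.25 times the sum of the 7 genes. The ratio was 3.74 with all exons joined, 2.64 with the longest transcript and 5.05 without division by length. The 7 genes act at different sites in mitochondria, and DNAJC11, at 904 per kilobase, was the largest part of their sum. Whether each of them acts with HSPA9 was not tested.

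The 14 nucleotide exchange factor genes were all at or above the median of all genes with a length, against 57.0% of protein-coding genes. Their summed level was 0.567 times that of the 36 DNAJ genes, and 0.923 times it without division by length. The 14 include HYOU1 and SIL1 (767 per kilobase) of the endoplasmic reticulum. Of its J proteins, DNAJB9, DNAJB11, DNAJC3 and DNAJC10 are outside the 36, whereas DNAJC1 is among them. HYOU1, an exchange factor of the endoplasmic reticulum, was the highest with 2833 per kilobase, and HSPA4L the lowest with 100 per kilobase. GRPEL1 and GRPEL2, which serve HSPA9, had 613 and 724 per kilobase. The 4 J protein genes with other names lay between 251 per kilobase for GAK and 1260 for SEC63, the J protein of the translocon. The 5 genes left out by the rule had levels from 182 per kilobase for DNAJC10 to 2122 for DNAJB11, and DNAJB1 had 1281. Together these 5 came to 0.162 times the sum of the 36 genes.

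**Figure D4:**
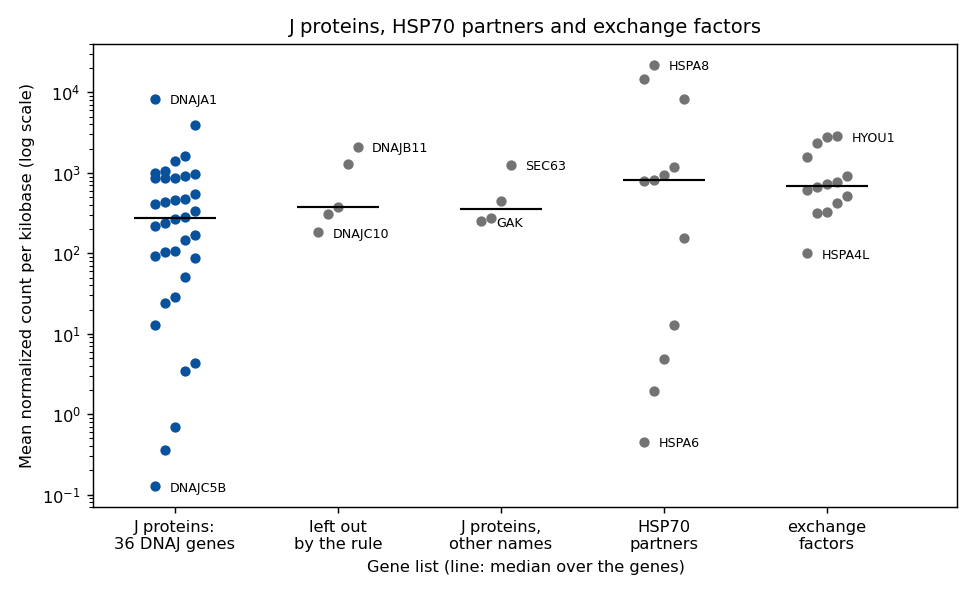
Mean normalized count per kilobase, on a log axis, with 1 point per gene for the 36 DNAJ genes, the 5 genes left out by the rule, 4 J proteins with other names, 12 HSP70 partners and 14 exchange factors; lines mark the median of each list. DNAJ and HSP70 genes span several orders of magnitude, whereas the exchange factors lie between 100 and 2833.

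Promoters of most members were rich in CG. RefSeq promoters of 300 bases (250 before the start and 50 after it) were matched by symbol for 32 of the 36 genes, with the start nearest to that of the MANE Select transcript. That start lay 545 bases away for DNAJB5 and 315 for DNAJC28, and at the same base for the others. DNAJC1, DNAJC22, DNAJC24 and DNAJC5B had no match. The median CG number was 25 per window, against 23 for the 19211 promoters of genes with a row and 14 for all 35116 promoters. These backgrounds hold every listed promoter of a gene, whereas each member has 1 here, so members and backgrounds are not matched. A ratio of observed to expected CG of at least 0.6 was found for 28 of 32 members, against 67.5% of promoters of genes with a row. The exceptions were DNAJC12, DNAJB13, DNAJB4 and DNAJC18. DNAJC12 and DNAJB13 had 1 and 3 CG dinucleotides and means under 10. DNAJB4 had 7 at a mean of 2527, and DNAJA4 had 41 at a mean of 1.13, so CG number and level did not go together in every member.

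**Figure D5:**
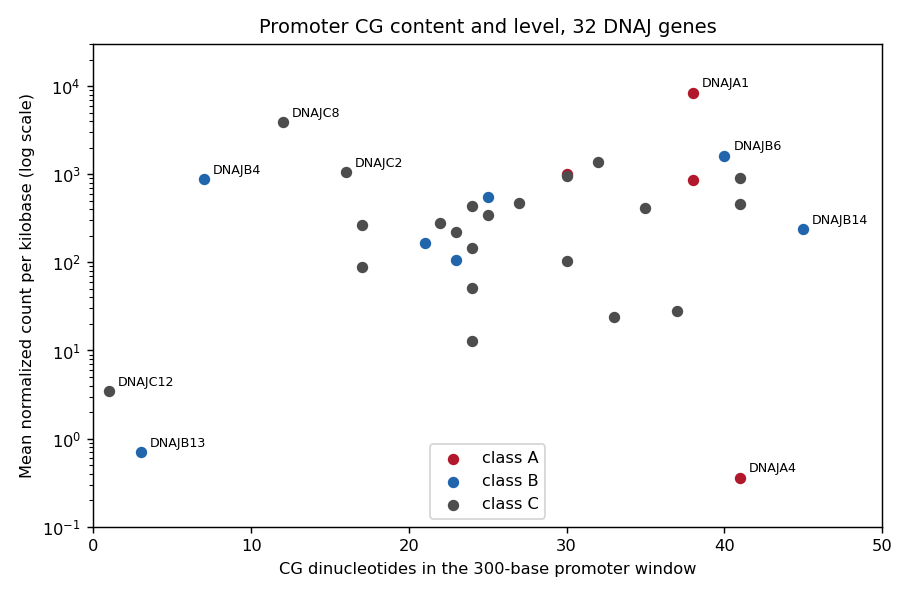
CG dinucleotides in the 300-base promoter window against the mean normalized count per kilobase on a log axis, 1 point per DNAJ gene, coloured by class, for 32 genes. DNAJC12 and DNAJB13 lie at the lower left, DNAJC8 and DNAJB4 at the upper left, and DNAJA4 at the lower right.

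The heat shock element, the site of HSF1, was searched as GAANNTTCNNGAA and its reverse complement TTCNNGAANNTTC. It was found in the windows of 2 of 32 members, DNAJA1 and DNAJB6. The share was 0.490% of all 35116 promoters and 0.416% of the 19211 promoters of genes with a row. As above, these backgrounds hold every listed promoter of a gene, and each member has 1. Capitals below mark the fixed letters of the element.
DNAJA1, chr9:33025276-33025288, from base 4 of the transcript: GAActTTCcaGAA
DNAJB6, chr7:157336873-157336885, from 131 bases before the start: GAAccTTCgcGAA
A match of these letters is a description and not evidence of binding. The CCAAT box (CCAAT or ATTGG) was found in 9 of 32 members, against 34.6% of all promoters and 34.3% of those of genes with a row. The TATA box (TATAAA or TTTATA) was found in DNAJC2, DNAJC15, DNAJB2 and DNAJC12. Its share was 11.5% of all promoters and 7.79% of those of genes with a row. The E-box CACGTG was found in DNAJC8, with 2 copies, in DNAJC16 and in DNAJC12. Its share was 7.26% of all promoters and 8.59% of those of genes with a row. The NRF1 motif GCGCATGCGC was found in DNAJB6 and DNAJC5, in 1.24% of all promoters and in 1.62% of those of genes with a row. The cyclic AMP response element TGACGTCA was found in DNAJC27, in 1.85% of all promoters and in 2.42% of those of genes with a row.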

How the data were processed

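Total RNA of triplicate cultures was made into stranded mRNA libraries. Per the labels and the study's methods, the authors aligned the reads to GRCh38 with STAR, normalized gene counts with DESeq2 and compared DOX with vehicle. The gene counter, its strand setting and its filter are not given in the sources used here. The deposited table has 1 row per symbol. Its mean normalized counts are signal values, averaged by the authors over all 6 libraries and not divided by length. The other columns hold the authors' fold changes, errors, statistics and p-values and were not used. The planned count test, which needs single libraries, was not run.

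Lengths and positions came from GENCODE 44, by symbol for 17729 genes and by a RefSeq synonym for 581, and 1482 did not match. Levels are means divided by the MANE Select or canonical transcript length in kilobases. The minimum was a mean of 10. The members and lists were chosen with earlier results of these data known. Every member was named, and of other lists the highest and lowest genes, except for genes singled out after their values were seen. Protein sequences were not used here. The search and ranking were tested on simulated data. Python 3.11.15, numpy 2.4.6, pandas 2.3.3 and matplotlib 3.10.9 were used.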

Additional observations from a re-analysis of the deposited data

How the results depend on the processing

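No paired analysis was possible because no library was analysed here on its own, and for the same reason no culture was left out and no other count test was run. Depth is unknown, so no interval for counting error was computed. The counts of genes at or above a mean of 10 or the median level stayed within 1.5 times under every minimum, length and gene set tried. The 27 genes at or above the median became 23 against the median of protein-coding genes. They became 21 against the median of genes with a mean of at least 10. A limit of 1.5 times is wide for such a count, so it cannot show that an excess over the median holds. With all exons joined as the length, class B held 8.92% of the summed level, its soluble genes 6.51%, the mitochondrial class C genes 4.08% and the other cytosolic class C genes (DNAJC7, DNAJC12 and DNAJC24) 1.37%. With the longest transcript, the soluble class B genes held 6.67% and the other cytosolic class C genes 3.02%. Without division by length, the clathrin and vesicle genes held 9.15% and the testis-linked genes (DNAJB13 and DNAJC5B) 0.00156%. These shares move because the length divisor changes. Without DNAJA1, chosen after seeing the data, class A held 10.5%. The other 46 of 55 values of these counts, shares and the median position moved by less than 1.5 times. Ratios between genes and sums, and the genes in the top 10.0%, were also taken under each length, chosen after seeing the data.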
